A study of Mus musculus with 22 samples.

Results

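The cells compared here came from one mouse epiblast stem cell line, Oct4GIP, whose cells had been pushed out of the primed state and then carried in a medium that holds pluripotent cells in the naive state. The question was what still changed between an early stage of that culture, after 2 or 3 passages, and a late stage, after 10 passages. The labels gave the groups: every Oct4GIP library labelled d16+10p (5 libraries) was set against every Oct4GIP library labelled d16+2p or d16+3p (4 libraries), which is 9 of the 22 libraries of the series. Primed cells were treated for 16 days in Basal medium on mouse embryonic fibroblast feeders with an activator of AMP-activated protein kinase (AMPK), with or without leukaemia inhibitory factor (LIF), and were then passaged in 2iL, which is a MEK inhibitor and a GSK3 inhibitor together with LIF. The AICAR dose was 0.5 mM during the initial 6 days and 1 mM from then on, while A769662 was given at 50 μM and metformin at 1 mM.

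The 4 early libraries were AICAR at 2 passages, AICAR+LIF at 2 passages, AICAR at 3 passages and AICAR+LIF at 3 passages. The 5 late libraries, all at 10 passages, were those of AICAR alone, AICAR+LIF, A769662 alone, A769662+LIF and lastly metformin+LIF. Values in all 9 libraries are given below in these 2 orders, as CPM. These are read counts scaled to a common total of gene reads per library and by a normalization factor of each library (TMM). Each condition was 1 library, so the spread within a stage is a spread between activators and passage numbers, and the p-values measure the spread between these libraries. A769662 and metformin were present at the late stage only, so that stage and activator can be told apart only within AICAR and AICAR+LIF. The line carries an eGFPiresPuro transgene driven by Oct4 regulatory sequence, and the labels give its strain as 129/Ola. The study describes Ndiff227 as the medium that carried 2iL after day 16, and its methods also name Basal medium for this step. The sources used here do not say which of them each library had, so a difference in medium between the stages could not be checked for the lipid genes described below or for any other gene. A library of naive Rex1-GFP embryonic stem cells served as an outside reference, and it is 1 library without a replicate.

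Naive pluripotent cells resemble the epiblast before implantation, and they are kept in 2iL because MEK inhibition silences the FGF-ERK pathway while GSK3 inhibition stabilises β-catenin. Primed cells resemble the epiblast after implantation and depend on FGF and Activin, and a transient formative state lies between both. Passing from one state to the other involves transcription factor circuits, DNA methyltransferases and metabolism, and cells in 2iL with LIF are known for low levels of de novo methyltransferases.

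The late libraries held 1689495 to 3380314 gene reads (median 3216191) and the early libraries 2678787 to 3404489 (median 2963711). Before TMM scaling, 3 reads thus stood for 0.888 to 1.78 CPM late and 0.881 to 1.12 CPM early. The shallowest library was AICAR at 10 passages. Pearson's r of log2 CPM between pairs of libraries lay between 0.942 and 0.973 at the late stage and between 0.958 and 0.985 at the early stage. The highest value, 0.985, was that of AICAR and AICAR+LIF at 2 passages, and the other early pairs lay between 0.958 and 0.968. The 2 libraries at 2 passages were thus much alike, yet the test counted them as independent. The early spread behind the p-values may therefore be too small. Pluripotency genes were present in all 9 libraries, with Pou5f1 (Oct4) between 716 and 1188 CPM. Markers of other cells were absent only in part. At most 3 reads in each of the 9 libraries were held by 7 of 22 fibroblast markers and 1 of 18 primitive endoderm markers. The same held for 2 of the 15 trophoblast markers in the table and 6 of 11 endothelial and blood markers. Fibroblast markers summed to 176 and 189 CPM in the libraries at 2 passages and to 50.1 and 47.4 CPM at 3 passages. Their sum was 49.0 to 72.7 CPM at 10 passages. Primitive endoderm markers summed to 307 to 458 CPM early and 267 to 497 CPM late, trophoblast markers to 102 to 144 CPM and 110 to 180 CPM, and endothelial and blood markers to 26.9 to 44.5 CPM and 17.1 to 83.5 CPM, so these 3 sums overlapped between the stages. Of the 8 primitive endoderm markers tested, 1 rose and 3 fell, with a median of −0.68. Chromosome 15 was read at a higher level across its genes in AICAR+LIF at 3 passages than in the other early libraries, and chromosome 8 in AICAR at 3 passages, as described near the end. In bulk libraries, fewer cells of a type and less RNA per cell cannot be told apart.

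Of 13280 genes with enough reads to test, 3136 differed between the stages at an adjusted p under 0.05 (23.6%; edgeR's quasi-likelihood test with Benjamini-Hochberg adjustment), 1732 of them higher (13%) and 1404 lower (10.6%) after 10 passages. A gene is said below to have risen or fallen only if it passed this test, and fold changes are log2 values of the late over the early stage. The CPM ranges of both stages did not overlap for 2854 genes (21.5%), 1518 of them higher (11.4%) and 1336 lower (10.1%). The median log2 change over all tested genes was 0.00. The 5 lists with the largest shares of tested members called were the 2-cell-like genes, the fatty acid and cholesterol genes, the core pluripotency genes and the integrated stress response genes around ATF4 (76.5% to 100% called), while 6.67% of the nuclear respiratory chain genes and 12.8% of the DNA replication genes passed the test. These shares are descriptions of the lists and carry no test of their own. Small counts were fragile: of the 49 counts of 3 or fewer members called in 1 direction of a list, 34 changed when 1 library was left out.

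**Figure D1:**
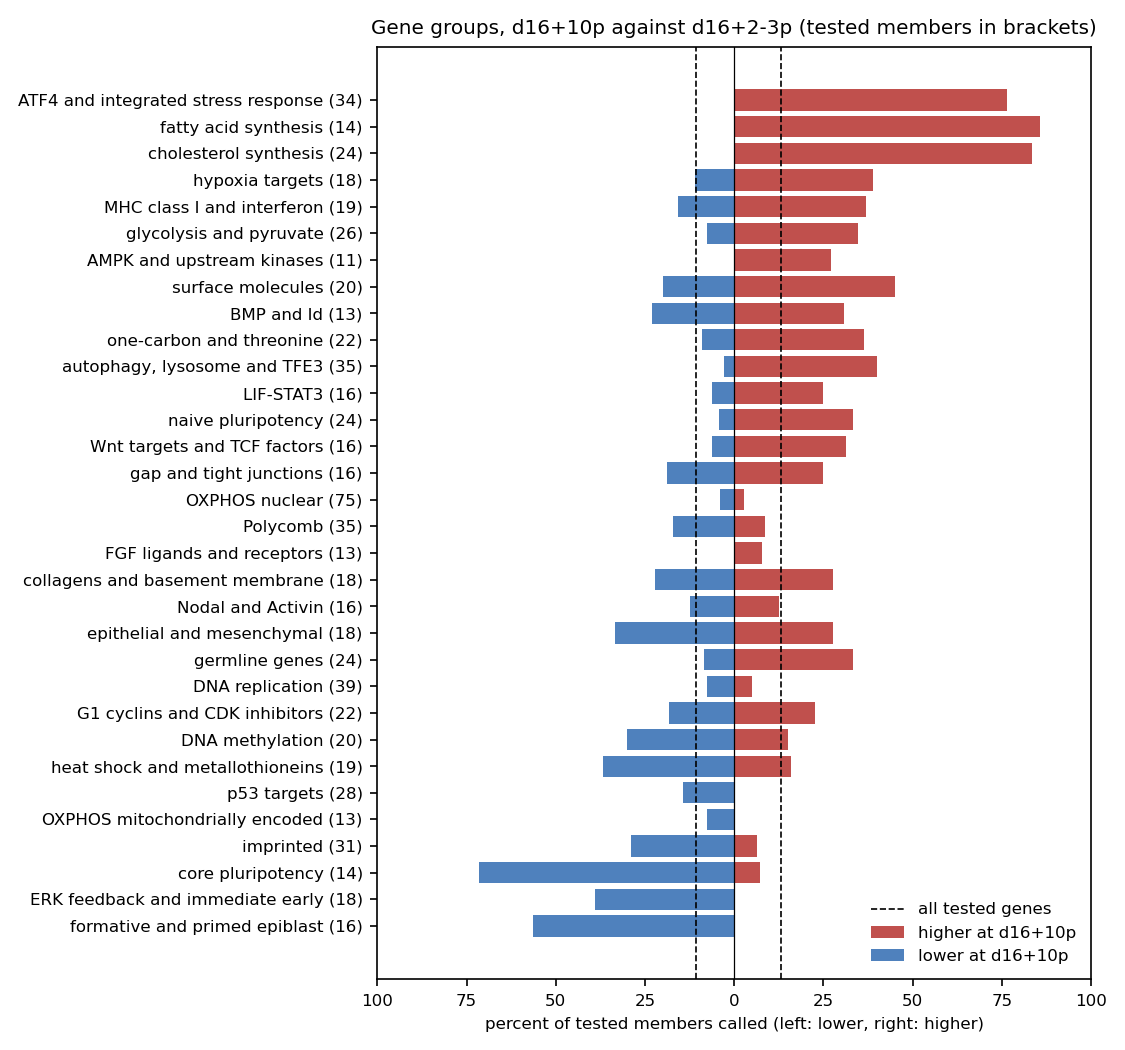
Percentage of the tested members of each gene list that were called higher (right) or lower (left) after 10 passages than after 2 to 3 passages, with the shares over all 13280 tested genes (13% higher, 10.6% lower) as dashed lines. Fatty acid, cholesterol and ATF4 genes reach furthest to the right, with 12 of 14, 20 of 24 and 26 of 34 members called higher, and core pluripotency and formative genes reach far to the left.

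The list with the most members higher was that of ATF4 and the integrated stress response. ATF4 is the transcription factor that is translated when amino acids are short or the endoplasmic reticulum is under stress, and its targets make, import and activate amino acids. Of its 38 listed genes 34 were tested, 26 rose and 0 fell, the median log2 change was 1.23 against 0.00 over all genes, and 22 of the members that rose did so without overlap. Asns, asparagine synthetase, was read at 278, 301, 390 and 306 CPM early and at 956, 813, 795, 1000 and 672 CPM late. The lowest late library was above the highest early library, and the log2 change was 1.42 (SE 0.13, adjusted p = 5.94e-05). Psat1, an enzyme of serine synthesis, rose by a log2 change of 1.69, from 103, 109, 160 and 183 CPM to 437, 491, 372, 522 and 406 CPM. Slc7a1, which imports cationic amino acids, rose by 1.45, from 82.9 to 118 CPM early to 242 to 292 CPM late. Aldh18a1, which makes the precursor of proline, rose by 1.53. For each of these 3 genes the stages did not overlap.

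The 2 largest changes in the list were those of Nupr1 and Chac1, both low early. Nupr1, a small stress-induced chromatin protein, was at 2.96, 1.14, 6.17 and 11.2 CPM early and at 67.1, 60.0, 36.4, 96.5 and 43.2 CPM late, a log2 change of 3.49 (SE 0.45, adjusted p = 0.000338). Within both stages the values spread widely, yet the stages did not overlap. Chac1, which degrades glutathione, was at 0.888, 0.380, 1.81 and 3.51 CPM and then at 17.6, 22.1, 6.47, 26.8 and 14.6 CPM (log2 change 3.38, adjusted p = 0.000981), and 2 of its early values lie at the level of 3 reads or below. Atf4 itself, named here because the group bears its name and not by the rule for named genes, was at 134, 144, 125 and 270 CPM early and at 388, 477, 396, 497 and 316 CPM late (log2 change 1.31, adjusted p = 0.00155). AICAR+LIF at 3 passages was its highest early library. Atf4 lies on chromosome 15, whose median was also raised in that library. Aars, alanyl-tRNA synthetase, rose by 0.53 but lost its call without AICAR or AICAR+LIF at 2 passages or without AICAR, AICAR+LIF or A769662+LIF at 10 passages (edgeR adjusted p from 0.0521 to 0.0914).

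The promoters of the 4 genes of this family that rose most and hold a match to a C/EBP-ATF response element are shown, because they let the shared letters be read beside the values. The element was searched as TGATGNAAN on both strands in windows of 250 bases before to 50 bases after the annotated start in RefSeq's GRCm38.p6, and the match is in capitals; in Nupr1, Chac1 and Vldlr it reads on the opposite strand. The windows are chr7:126625421-126625720 on the minus strand for Nupr1, chr2:119350992-119351291 on the plus strand for Chac1, chr19:27216770-27217069 on the plus strand for Vldlr and chr11:120643699-120643998 on the minus strand for Pycr1. The match begins 111, 194, 201 and 103 bases before the start.
Nupr1: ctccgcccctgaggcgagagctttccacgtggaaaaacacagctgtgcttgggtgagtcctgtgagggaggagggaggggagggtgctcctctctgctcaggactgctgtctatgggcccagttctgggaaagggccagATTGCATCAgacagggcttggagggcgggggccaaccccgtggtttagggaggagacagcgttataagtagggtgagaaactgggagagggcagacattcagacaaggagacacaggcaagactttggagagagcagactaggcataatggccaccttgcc
Chac1: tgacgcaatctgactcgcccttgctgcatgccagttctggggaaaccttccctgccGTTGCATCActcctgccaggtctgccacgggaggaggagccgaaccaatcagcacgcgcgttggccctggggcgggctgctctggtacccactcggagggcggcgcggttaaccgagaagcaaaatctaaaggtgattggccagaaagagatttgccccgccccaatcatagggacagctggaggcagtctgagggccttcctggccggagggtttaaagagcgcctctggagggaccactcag
Vldlr: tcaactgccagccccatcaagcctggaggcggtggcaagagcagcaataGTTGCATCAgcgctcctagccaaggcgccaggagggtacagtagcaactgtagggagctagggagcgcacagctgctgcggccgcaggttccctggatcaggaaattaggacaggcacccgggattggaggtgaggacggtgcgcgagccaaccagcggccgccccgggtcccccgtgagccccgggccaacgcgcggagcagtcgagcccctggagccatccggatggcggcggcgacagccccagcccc
Pycr1: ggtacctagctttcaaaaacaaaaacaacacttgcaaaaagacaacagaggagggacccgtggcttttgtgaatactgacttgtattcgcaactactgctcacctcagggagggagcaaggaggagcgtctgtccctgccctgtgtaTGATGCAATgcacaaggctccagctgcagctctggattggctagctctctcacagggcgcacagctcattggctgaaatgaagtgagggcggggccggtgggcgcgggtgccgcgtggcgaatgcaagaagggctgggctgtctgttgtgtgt

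Vldlr, a lipoprotein receptor, rose from 1.14 to 1.81 CPM to 4.31 to 12.4 CPM (log2 change 2.40), and Pycr1, which completes proline synthesis, from 3.85 to 13.4 CPM to 28.6 to 42.6 CPM (log2 change 2.11). A window was found for 31 of the 38 family members, and 11 of them held the element (35.5%), against 4.50% of the 27025 gene symbols with a window and 2.52% of the 9057 tested genes with one. Among the members that rose, 8 of 24 with a window held it. These are letter matches in a short window, and no binding was measured.

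One-carbon and threonine metabolism shares 7 genes with the ATF4 list. Of its 22 genes, all tested, 8 rose and 2 fell, with a median log2 change of 0.27. Phgdh, the first enzyme of serine synthesis, rose from 30.5, 36.5, 35.6 and 29.2 CPM to 120, 98.9, 49.3, 91.2 and 80.4 CPM (log2 change 1.41), Mthfd2, a mitochondrial folate enzyme, rose by 1.37, and Amt, part of the glycine cleavage system, rose by 0.89. A769662 was the lowest late library for Phgdh and for Mthfd2. Tdh, threonine dehydrogenase, which mouse pluripotent cells are known to depend on, was at 614 to 734 CPM early and at 464 to 793 CPM late and did not pass the test (log2 change −0.05, adjusted p = 0.816).

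Genes of cholesterol synthesis and uptake rose almost as a block. All 24 tested members of the 25 had a positive log2 change, 20 rose and 0 fell, and the median was 0.87. Insig1, which retains the sterol-sensing complex in the endoplasmic reticulum, was at 69.3, 82.2, 81.7 and 93.5 CPM early and then at 258, 189, 223, 300 and 223 CPM late (log2 change 1.55). Stard4, a sterol carrier, was at 55.1, 44.5, 48.3 and 48.1 CPM and then at 141, 115.5, 91.5, 121 and 109 CPM, with no overlap (log2 change 1.23, SE 0.13, adjusted p = 0.00012). Srebf2, which encodes the transcription factor SREBP2, rose by 0.73, but its early library AICAR+LIF at 3 passages (370 CPM) overlapped the late metformin+LIF library (336 CPM). Sqle, squalene epoxidase, named after its values were seen, was among the 4 tested members that did not pass (log2 change 0.43, adjusted p = 0.0761).

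Fatty acid synthesis showed the same direction, with 12 of 14 tested members of 15 higher, 0 lower and a median of 0.99. Scd1, which desaturates stearoyl-CoA, was at 63.1, 71.1, 95.8 and 99.4 CPM early and at 637, 538, 423, 588 and 457 CPM late (log2 change 2.69, SE 0.17, adjusted p = 5.85e-06). Scd2, its paralog, was at 496, 477, 460 and 510 CPM and then at 1863, 1685, 1578, 1876 and 2381 CPM (log2 change 1.95, adjusted p = 3.69e-06). Neither desaturase overlapped between the stages. Fasn, fatty acid synthase, rose by 0.92 (541 to 723 CPM against 1117 to 1250 CPM) and Srebf1, which encodes SREBP1, by 1.13 (68.8 to 84.7 CPM against 155 to 188 CPM).

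Across the 9 libraries the median of the ATF4 list, taken against the early mean, was −0.20 to 0.24 early and 0.74 to 1.45 late, that of the cholesterol list −0.13 to 0.12 and 0.63 to 1.11, and that of the fatty acid list −0.11 to 0.18 and 0.94 to 1.39. A769662+LIF was the highest late library for the ATF4 and cholesterol lists and AICAR for the fatty acid list. The naive library was at 0.76, 0.79 and 1.56 for these 3 lists, inside the late range for the first 2 and above it for fatty acids. The 2 libraries of 129/MSM cells at 10 passages, another line carried through the same AMPK activation, were at 1.19 and 1.58, 0.75 and 0.87, and 0.98 and 1.20. With AICAR and AICAR+LIF libraries alone and a term for LIF, 21 ATF4, 15 cholesterol and 11 fatty acid genes were called higher.

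**Figure D2:**
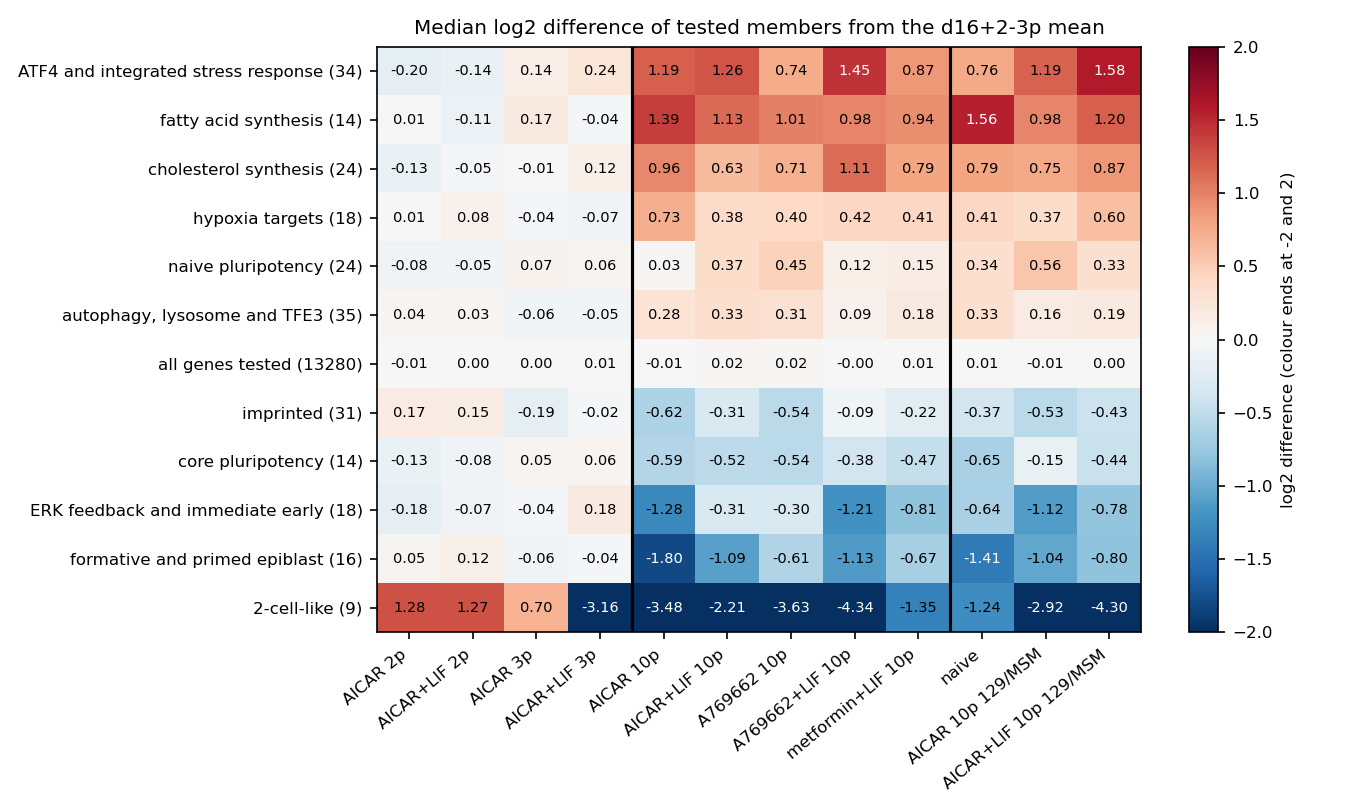
Median log2 difference from the mean of the early libraries over the tested members of each gene list (rows), in the 9 Oct4GIP libraries, the naive library and the 129/MSM libraries at 10 passages (columns). ATF4, cholesterol and fatty acid rows are raised in every library at 10 passages, and the 2-cell-like row is high in 3 early libraries and low in AICAR+LIF at 3 passages (−3.16).

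Glycolysis and pyruvate genes were called in 42.3% of tested members, against 23.6% of all tested genes, and nuclear respiratory chain genes in 6.67%. Of 26 tested glycolysis and pyruvate genes (28 listed) 9 rose and 2 fell, with a median of 0.30. Hk1, a hexokinase, was at 48.5, 44.5, 58.1 and 46.7 CPM early and at 278, 287, 243, 178 and 163 CPM late (log2 change 2.21, adjusted p = 2.13e-05), with both late libraries at the lower end carrying LIF with A769662 or metformin. Aldoc, an aldolase, rose by 1.48 and Ldhb, a lactate dehydrogenase subunit, by 1.33. Pdk1, which inhibits pyruvate dehydrogenase, fell from 50, 59.0, 34.9 and 39.0 CPM to 10.6, 3.24, 3.70, 5.65 and 9.53 CPM (log2 change −2.85). The naive library held 43.1 CPM of Pdk1, a level inside the early range, and its call was lost when the 129/MSM libraries were added to the late stage (log2 change −1.02). Gapdh and Pkm, the most abundant members, did not pass (adjusted p = 0.288 and 0.0863). Of 75 tested nuclear genes of oxidative phosphorylation (75 in the table) 2 rose and 3 fell, with a median of 0.04. All 13 mitochondrially encoded mRNAs had a negative log2 change (median −0.32), but 1 fell, mt-Nd2 (log2 change −0.45), and it lost its call without AICAR+LIF at 2 passages or AICAR+LIF at 3 passages (edgeR adjusted p = 0.0588 and 0.0528). Without AICAR+LIF or A769662 at 10 passages 4 and 3 of these mRNAs fell, and without AICAR+LIF at 3 passages 7 nuclear genes rose.

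Among 18 tested hypoxia targets (21 listed) 7 rose and 2 fell, with a median of 0.43, so 50% were called against 23.6% of all tested genes. The members that fell were Pdk1, described above, and Hif1a. The call of Hif1a was lost without any 1 of the early libraries (edgeR adjusted p from 0.0639 to 0.108). Vegfa, the angiogenic growth factor, was at 2.66, 4.18, 5.45 and 10.5 CPM early and at 38.8, 44.1, 36.0, 47.5 and 21.1 CPM late (log2 change 2.72, adjusted p = 0.000304), and Ero1l, an oxidase of the endoplasmic reticulum, rose by 0.93. Lysosome and autophagy genes had 14 members higher and 1 lower of 35 tested (36 listed), with a median of 0.23: Ctsb, a lysosomal protease, rose by 1.0, and Wipi1, an autophagy protein, by 1.96. Of the 11 tested AMPK genes (12 listed) 3 rose and 0 fell, a share of 27.3% called that is near the 23.6% of all tested genes. Prkag2, a regulatory subunit, was at 8.59, 15.2, 8.71 and 10.2 CPM and then at 24.7, 21.1, 18.8, 20.4 and 25 CPM (log2 change 1.04). Prkaa2, a catalytic subunit, rose by 1.01, and Prkab1, another regulatory subunit, by 0.53, a call lost without AICAR at 2 passages (edgeR adjusted p = 0.0521).

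**Figure D3:**
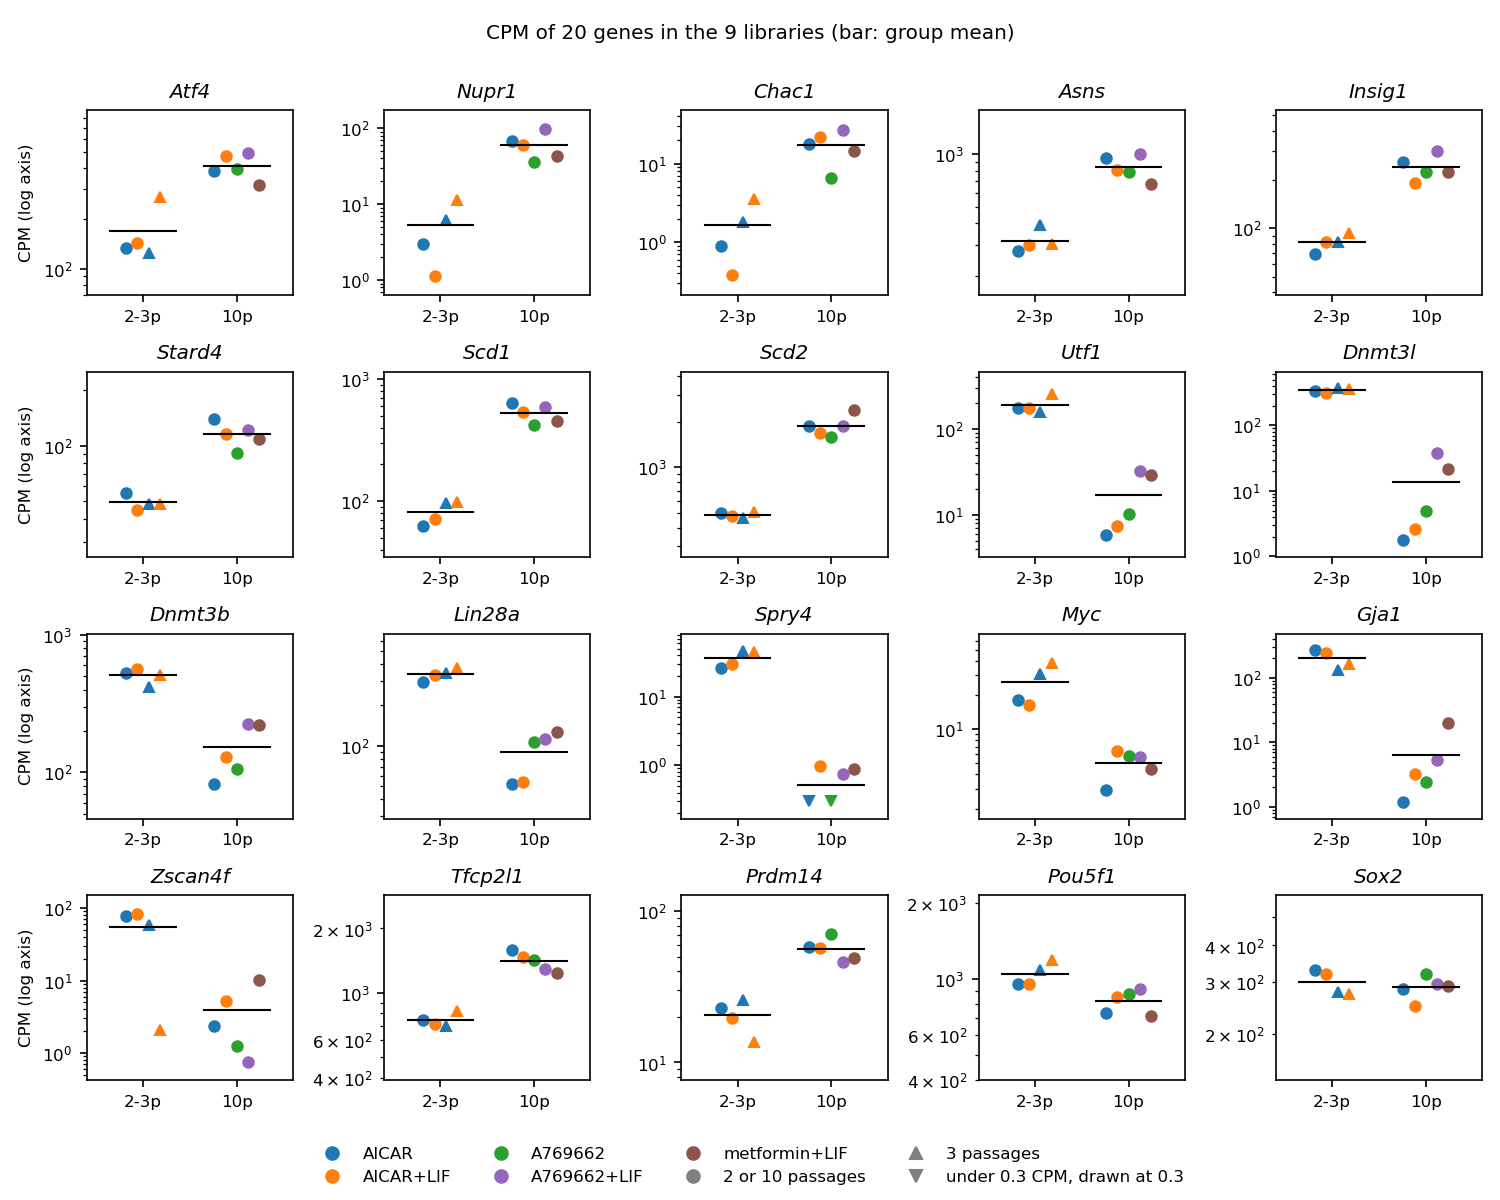
CPM of 20 genes in each of the 9 libraries on a log axis, early libraries to the left and late libraries to the right of each panel, with each stage's mean as a line. Scd1 and Nupr1 lie higher in all late libraries, Spry4 and Gja1 lower in all late libraries, and Sox2 overlaps between the stages.

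Feedback genes of the FGF-ERK pathway were lower at the late stage, although MEK was inhibited at both. ERK signalling induces its own inhibitors, the Sprouty proteins and dual-specificity phosphatases, together with immediate early genes. Of 23 listed genes 18 were tested, 0 rose and 7 fell, with a median of −0.67. Spry4 was at 26.6, 29.7, 46.5 and 44.6 CPM early and at 0, 0.973, 0, 0.754 and 0.893 CPM late. The late stage held 8 Spry4 reads in all, and the ratio of pooled reads was 64.0-fold (95% exact interval 32.2 to 149, counting error only; edgeR adjusted p = 9.13e-06). Spry2 was at 105, 100, 103 and 117 CPM and then at 42.4, 56.4, 57.3, 39.6 and 39.6 CPM (log2 change −1.17), and Dusp6, a phosphatase of ERK, at 14.5 to 21.3 CPM and then at 1.49 to 6.47 CPM (log2 change −2.32). Myc, a growth regulator on chromosome 15, was at 18.1, 16.4, 30.9 and 38.6 CPM and then at 2.94, 6.49, 5.85, 5.65 and 4.47 CPM (log2 change −2.30). Etv5, an ETS factor induced by ERK, was at 419 to 471 CPM and 358 to 480 CPM and did not pass (adjusted p = 0.459).

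Egr1 and Fos, immediate early genes of the same list that were chosen after their values were seen, did not pass the test (adjusted p = 0.361 and 0.163), and their late libraries lay at very different levels. Egr1 was at 1.48, 2.28, 37.0 and 21.4 CPM early and at 1.18, 88.5, 149, 0.754 and 0 CPM late, with the high late values in AICAR+LIF and A769662. Fos was high in those same late libraries, at 44.1 and 43.1 CPM, and at 0.893 to 1.88 CPM in the other three. Of the 13 tested FGF ligands, receptors and pathway genes (21 listed) 1 rose and 0 fell, so 7.69% passed.

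Genes of the formative and primed epiblast fell. Of 25 listed genes 16 were tested, all 16 had a negative log2 change, 9 fell and the median was −1.01. Of the 16 tested genes 1 had under 10 reads in each library of a stage. The number that fell was 5 with at least 10 counts in every library, with 3 passages alone as the early stage, or with all 22 libraries. Dnmt3b, a de novo DNA methyltransferase, was at 531, 569, 418 and 510 CPM early and at 83.0, 129, 106, 224 and 222 CPM late (log2 change −1.72, SE 0.26, adjusted p = 0.000822). Utf1, a chromatin factor of the epiblast, was at 173, 173, 157 and 256 CPM and then at 5.88, 7.46, 10.2, 32.4 and 28.9 CPM (log2 change −3.44, adjusted p = 0.000158). Both genes kept higher late levels in A769662+LIF and metformin+LIF than in the other 3 late libraries. Wnt8a, a Wnt ligand of the early epiblast, was at 22.8, 19.8, 6.90 and 13 CPM and held 9 reads in all late libraries, a ratio of 24.9-fold (95% exact interval 12.8 to 55.2, counting error only). Otx2, a transcription factor of the transition out of the naive state, fell by 1.77 on the log2 scale from 12.1, 19, 8.35 and 4.92 CPM to 1.18, 5.51, 4.31, 2.26 and 2.08 CPM, with overlap, and its call was lost when AICAR and AICAR+LIF libraries were compared alone and when the early stage was limited to 3 passages. Fgf5, the marker of the primed epiblast, had 16 reads early and 4 late and was not tested.

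The core pluripotency list fell as well, mostly through genes that accompany the core factors. Of 14 genes, all tested, 1 rose and 10 fell, with a median of −0.52. Lin28a, an RNA-binding protein that blocks let-7 maturation, was at 294, 334, 347 and 376 CPM early and at 51.8, 54.2, 107, 112 and 126 CPM late (log2 change −1.89, adjusted p = 0.000276). Dppa4 and Dppa2, a pair of chromatin factors that act together, fell by 1.30 and 1.0 on the log2 scale. The core factors themselves moved little. Pou5f1 was at 953, 954, 1086 and 1188 CPM and then at 732, 851, 869, 914 and 716 CPM (log2 change −0.35, adjusted p = 0.0182), with no overlap. Its edgeR call was lost without AICAR+LIF at 3 passages (log2 change −0.29, adjusted p = 0.0560), with AICAR and AICAR+LIF libraries alone (adjusted p = 0.0635), with 2 passages alone as the early stage (adjusted p = 0.170) and with all 22 libraries in the fit (adjusted p = 0.762). Sox2 was at 273 to 330 CPM and 249 to 319 CPM (adjusted p = 0.700). Nanog, the 1 member that rose, was at 453, 486, 596 and 484 CPM and then at 496, 783, 759, 646 and 707 CPM (log2 change 0.43, adjusted p = 0.0273), with overlap. Its call was lost without AICAR or AICAR+LIF at 2 passages, AICAR+LIF at 3 passages, or AICAR+LIF, A769662 or metformin+LIF at 10 passages (edgeR adjusted p from 0.0538 to 0.0813).

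Naive transcription factors were already high at the early stage, and some rose further. Of 25 listed genes 24 were tested, 8 rose and 1 fell, with a median of 0.22. Tfcp2l1, a factor downstream of LIF, was at 750, 715, 700 and 820 CPM early and at 1589, 1467, 1423, 1297 and 1232 CPM late (log2 change 0.91, SE 0.09, adjusted p = 6.55e-05). Prdm14, which represses de novo methyltransferases, was at 23.1, 19.8, 25.8 and 13.7 CPM and then at 57.7, 56.8, 70.8, 46.4 and 49.1 CPM (log2 change 1.44), and neither gene overlapped between the stages. Dppa3 (Stella) rose by 1.71, but from 48.0 and 48.3 CPM at 2 passages and 22.5 and 12.7 CPM at 3 passages, with A769662+LIF (48.6 CPM) far under the other late libraries (108 to 131 CPM). The naive library held 47.8 CPM of Dppa3 and the 129/MSM libraries at 10 passages 23.3 and 31.4 CPM, all inside the early range. Tfcp2l1 and Prdm14 were at 1154 and 67.65 CPM in the naive library, above their early ranges. Esrrb, Klf4, Klf2, Nr5a2, Zfp42 (Rex1) and Dppa5a, members of the same circuit, did not pass, with log2 changes from −0.37 to 0.23. The number of naive genes that rose was 4 without AICAR at 2 passages, 3 without AICAR+LIF at 2 passages and 5 without A769662 at 10 passages.

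Genes of the Wnt, LIF, BMP and Nodal pathways moved in both directions. Of 16 tested Wnt genes (24 listed) 5 rose and 1 fell: Axin2 and Sp5, feedback targets of β-catenin, rose by 1.21 and 2.66, and Sp5 was at 17.5, 13.3, 3.63 and 3.51 CPM early and at 77.1, 70.4, 82.9, 37.7 and 39.6 CPM late. Ctnnb1, which encodes β-catenin, was at 780 to 895 CPM and 706 to 900 CPM (adjusted p = 0.346). Of 16 LIF-STAT3 genes, all tested, 4 rose and 1 fell. The gene that fell was Socs3, a direct STAT3 target and inhibitor of LIF signalling, with 51.8, 45.6, 58.1 and 66.1 CPM and then 33.5, 32.8, 33.9, 24.5 and 24.4 CPM (log2 change −0.90). The 4 LIF-STAT3 genes higher were 1 without AICAR+LIF at 2 passages and 2 without AICAR at 3 passages. Of 13 tested BMP genes (20 listed) 4 rose and 3 fell: Id3, the main target of BMP signalling, fell from 40.6, 38.0, 48.3 and 62.9 CPM to 0.588, 13.9, 16.3, 6.41 and 9.23 CPM (log2 change −2.25), while the receptor Acvr1 and the effector Smad1 rose by 1.47 and 1.15. Nodal and Activin genes had 2 higher and 2 lower of 16 tested (19 listed), so 25% were called, near the 23.6% of all tested genes.

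Of 20 DNA methylation genes, all tested, 3 rose and 6 fell, with a median of −0.14. Dnmt3l, the cofactor of the de novo enzymes, was at 331, 317, 366 and 354 CPM early and at 1.76, 2.60, 4.93, 38.1 and 21.4 CPM late (log2 change −4.59, SE 0.54, adjusted p = 0.000202). As with Utf1, the higher late values were in A769662+LIF and metformin+LIF. Dnmt3a, the other de novo enzyme, was at 93.8 to 117 CPM and then at 40.9 to 80.6 CPM (log2 change −0.81), a call lost with 3 passages alone as the early stage (log2 change −0.69, edgeR adjusted p = 0.0982). Mbd1, which binds methylated CpG, and Trim28, a corepressor of KRAB zinc finger proteins, fell by 0.80 and 0.42 on the log2 scale. Mbd1 was at 27.1 to 37.3 CPM early and at 16.5 to 21.25 CPM late. The naive library held 48.4 CPM of Mbd1, and the 129/MSM libraries at 10 passages held 44.1 and 50.95 CPM. With these 129/MSM libraries added to the late stage its call was lost (log2 change −0.28, edgeR adjusted p = 0.5775). The maintenance factor Uhrf1 did not pass (adjusted p = 0.680), and neither did Tet1 nor Tet2, which oxidise methylcytosine (adjusted p = 0.981 and 0.607). Uhrf2, the relative of Uhrf1, rose by 0.94. The naive library held 3.10 CPM of Dnmt3l and 41.9 CPM of Dnmt3b.

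Of 31 tested imprinted genes (43 in the table) 2 rose and 9 fell, with a median of −0.33. Peg10 was at 776, 644, 303 and 231 CPM early and at 38.2, 43.5, 42.8, 136 and 128 CPM late (log2 change −2.65), so it was lower at 3 passages than at 2 in both arms. Mest was at 225, 243, 260 and 242 CPM and then at 42.4, 76.2, 58.5, 85.9 and 114 CPM (log2 change −1.67, adjusted p = 0.000264), and Cdkn1c, an inhibitor of the cell cycle, was at 3.80 to 7.99 CPM and then at 0 to 2.68 CPM. Meg3, a long noncoding RNA, fell by 1.14 with overlap. Of 35 tested Polycomb genes (36 listed) 3 rose and 6 fell, so 25.7% were called, near the 23.6% of all tested genes. Kdm2b, which brings a Polycomb complex to CpG islands, was at 234, 213, 216 and 235 CPM and then at 78.2, 71.7, 82.9, 94.2 and 81.3 CPM (log2 change −1.46, SE 0.09, adjusted p = 6.05e-06). Eed and Phc1, subunits of the 2 Polycomb complexes, fell by 0.62 and 0.67 on the log2 scale.

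Germline genes that escape silencing in naive cells went both ways. Of 24 tested (31 in the table) 8 rose and 2 fell, and the median was −0.05. Fkbp6, of the meiotic and piRNA machinery, was at 25.8, 24.7, 24.7 and 33.4 CPM early and at 75.3, 49.3, 78.5, 58.4 and 36.3 CPM late (log2 change 1.13), and Smc1b, a meiotic cohesin, rose by 1.20. Dazl, an RNA-binding protein of germ cells, was at 74.0 to 140 CPM and 48.6 to 218 CPM and did not pass (adjusted p = 0.392). With the early stage limited to 3 passages, or with the 129/MSM libraries added, 1 germline gene was higher in place of 8.

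The 2-cell-like genes had the lowest median of the lists, and their fall depended on which early libraries were used. The Zscan4 family marks a rare, passing state in which embryonic stem cells express genes of the 2-cell embryo. Of 21 listed members 20 were in the table, and all 9 that were tested fell (median −3.38). The Zscan4 copies among them are nearly identical and share reads, so these are not 9 independent genes. Eif1a, the most abundant tested member, lies outside the Zscan4 family and fell by 0.29 on the log2 scale. Its call was lost with the 129/MSM libraries added to the late stage (edgeR adjusted p = 0.119). Zscan4f was at 77, 83.7, 58.1 and 2.11 CPM early and at 2.35, 5.19, 1.23, 0.754 and 10.1 CPM late (log2 change −3.71, adjusted p = 0.00548). The low early value was AICAR+LIF at 3 passages, inside the late range. With the early stage limited to 3 passages, or with AICAR and AICAR+LIF alone, 0 of the list passed the test, and limma called 1.

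Growth and stress genes outside the metabolic families changed one by one. Of 22 tested cyclin and inhibitor genes (24 listed) 5 rose and 4 fell: Cdkn2a, which encodes p16 and p19Arf, was at 2.66, 3.80, 5.81 and 3.51 CPM early and at 24.1, 32.4, 29.3, 18.8 and 12.8 CPM late (log2 change 2.58, adjusted p = 0.000289), and Cdkn1b (p27) rose by 1.22. Of 39 DNA replication genes, all tested, 2 rose and 3 fell. Of 28 tested p53 targets (29 listed) 0 rose and 4 fell, so 14.3% were called. Of all tested genes, 23.6% were called and 10.6% were called lower. Among the p53 targets that fell was Pmaip1 (Noxa), which promotes cell death, from 44.7, 52.9, 28.7 and 25.3 CPM to 4.12, 1.62, 4.0, 2.26 and 7.15 CPM (log2 change −3.27). The naive library held 11.2 CPM of Pmaip1, and the 129/MSM libraries at 10 passages held 24.9 and 24.7 CPM. With AICAR and AICAR+LIF libraries alone 13 p53 targets were lower, with the 129/MSM libraries added 10, with DESeq2 9, and with 3 passages alone as the early stage or all 22 libraries 2. The number was 10 without A769662 at 10 passages, 9 without metformin+LIF, and 2 without AICAR at 2 passages, AICAR+LIF at 2 passages, AICAR, AICAR+LIF or A769662+LIF at 10 passages. The metallothioneins Mt1 and Mt2, which bind zinc, gave the lowest adjusted p of any named gene (1.14e-06 for both): Mt1 was at 98.3, 83.3, 94.7 and 89.6 CPM and then at 354, 497, 433, 447 and 378 CPM, and Mt2 at 128, 128, 134 and 127 CPM and then at 599, 845, 619, 720 and 590 CPM. Among the chaperones listed with them Hsph1 fell by 0.88, and 7 of the 19 tested members fell in all (4 without AICAR+LIF at 3 passages).

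Adhesion and surface genes held some of the largest single changes. Gja1 (connexin 43), a gap junction channel, was at 271, 239, 134 and 163 CPM early and at 1.18, 3.24, 2.46, 5.28 and 19.6 CPM late (log2 change −4.86, SE 0.48, adjusted p = 7.61e-05). Esrp1, an epithelial splicing factor, had 228 reads early and 12 late, a ratio of 23-fold (95% exact interval 12.9 to 45.1, counting error only), and Grhl2, an epithelial transcription factor, fell by 2.28 on the log2 scale. Of 18 tested epithelial and mesenchymal genes (24 listed) 5 rose and 6 fell (3 lower without AICAR at 2 passages). Cdh1, E-cadherin, was called higher with overlap (log2 change 0.74, adjusted p = 0.0175), and the call was lost without AICAR at 2 passages or AICAR+LIF at 2 passages (adjusted p = 0.0538 and 0.0577). Among 18 tested collagen and basement membrane genes (28 listed) Nid1, a basement membrane linker, rose by 2.07 and Col4a1, a type IV collagen chain, fell by 2.24 on the log2 scale, with 5 members higher and 4 lower in all (2 lower without AICAR at 2 passages or AICAR at 3 passages). Col4a1, Col4a2, Lama1, Lamb1 and Sparc of this list are also among the primitive endoderm markers. The fibroblast marker sum was highest at 2 passages, and the part of neither marker list in these values was tested. Of the surface molecules 9 rose and 4 fell of 20 tested (26 in the table; 2 lower without AICAR at 2 passages). Kit, the receptor of stem cell factor, was at 122, 123, 122 and 113 CPM and then at 424, 515, 486, 227 and 324 CPM (log2 change 1.72), Cd9, a tetraspanin, rose by 0.81 and Lrp2, an endocytic receptor, fell by 1.70.

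Most lineage genes had too few reads to test. Of 19 mesendoderm genes 4 were tested, of 17 neural genes 5, and of 39 Hox genes 5, with 22 Hox genes at no more than 3 reads in each of the 9 libraries. Some were well read: Tubb3, a neuronal tubulin, was at 72.0 to 155 CPM early and 30 to 231 CPM late and Nes, an intermediate filament of neural progenitors, at 20.9 to 34.1 CPM and 22.9 to 34.1 CPM, and neither passed (adjusted p = 0.848 and 0.441). Cdx1, a caudal-type homeobox factor, rose from 17.5, 11.4, 11.6 and 10.2 CPM to 43.5, 22.4, 30.2, 16.2 and 14.6 CPM with overlap (log2 change 0.95, adjusted p = 0.0477). Its call was lost with limma (adjusted p = 0.0888) and with 3 passages alone as the early stage (edgeR adjusted p = 0.0944). It was also lost without AICAR+LIF at 2 passages, either library at 3 passages, or AICAR, AICAR+LIF or A769662 at 10 passages. In those runs the edgeR adjusted p was 0.0678 to 0.109. T (Brachyury), the primitive streak factor, was at 1.76 to 4.74 CPM early and 1.49 to 4.31 CPM late (adjusted p = 0.792). Hoxc4 was the Hox gene that rose most, from 12 to 128 pooled reads. Sox11, a neural factor, fell from 24.6, 25.9, 12.7 and 17.9 CPM to 0, 2.27, 3.39, 3.77 and 6.55 CPM (log2 change −2.54). Of 19 tested MHC class I and interferon genes (31 listed) 7 rose and 3 fell: Ifitm1, a membrane protein induced by interferon, rose by 1.59 and Ddx58 (RIG-I), a sensor of viral RNA, fell by 2.04. The genes higher in that list were 4 without AICAR at 2 passages, AICAR at 3 passages or AICAR+LIF at 10 passages.

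Outside the lists, the largest changes without overlap between the stages included genes with no shared role. Slc39a14, a zinc and iron importer, was at 83.5, 76.5, 66.4 and 82.2 CPM early and at 1.76, 3.89, 5.24, 4.14 and 10.1 CPM late (log2 change −3.84, SE 0.27, adjusted p = 9.13e-06). Manba, a lysosomal mannosidase that fell while the lysosomal list leaned upward, was at 223, 234, 308 and 245 CPM and then at 15.9, 16.5, 36.7, 33.2 and 34.2 CPM (log2 change −3.18). Enox1 fell by 3.47 on the log2 scale. Among the genes that rose, Glis3, a zinc finger factor, was at 9.47, 7.23, 3.99 and 4.57 CPM and then at 48.2, 48.3, 61.9, 42.6 and 53.3 CPM (log2 change 2.98, adjusted p = 1.84e-05), while the naive library held 11.2 CPM. Jakmip1 rose by 2.88, Cadm4, an adhesion molecule, by 3.41 and Abcg1, a sterol exporter, by 3.15. The calls of these 7 genes held without any 1 library.

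Some calls given above depended on which libraries stood for a stage. With 3 passages alone as the early stage, Aars, Cdh1, Cdx1, Fkbp6, Meg3, Nanog, Prkaa2, Prkab1, Smc1b, Srebf2 and mt-Nd2 did not pass. Their edgeR adjusted p was 0.0511 to 0.278. With AICAR and AICAR+LIF libraries alone, which keep stage apart from activator, Aars, Cdh1, Nanog, Prkab1, Smc1b and mt-Nd2 did not pass (edgeR adjusted p from 0.0705 to 0.277). With the 129/MSM libraries added to the late stage, Cdx1, Col4a1, Dppa3, Mbd1, Smc1b and Socs3 did not pass (edgeR adjusted p from 0.0522 to 0.5775). Of the list counts above 3, the AICAR and AICAR+LIF libraries alone gave 5 naive, 4 germline, 4 hypoxia, 4 MHC and interferon, and 3 epithelial and mesenchymal genes higher, and 3 heat shock and metallothionein genes lower.

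Libraries of a stage were not equally far along. Each library was placed on the axis from the early mean (0) to the late mean (1) of log2 CPM, gene by gene, with calls and means taken without that library, and the median was taken over genes whose means differed by at least 0.5. The early libraries lay at 0.070, 0.033, 0.059 and 0.138, AICAR+LIF at 3 passages being the highest. The late libraries lay at 1.24 for AICAR, 0.961 for AICAR+LIF, 0.977 for A769662, 0.872 for A769662+LIF and 0.614 for metformin+LIF. The last was the nearest to the early stage, and without it the number of called genes was 3322. Levels at 3 passages lay between those at 2 and 10 passages for 44.0% of the genes that rose and 53.8% of those that fell, against 36.9% of all tested genes; these genes were called with the same libraries, so the shares are descriptions only.

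**Figure D4:**
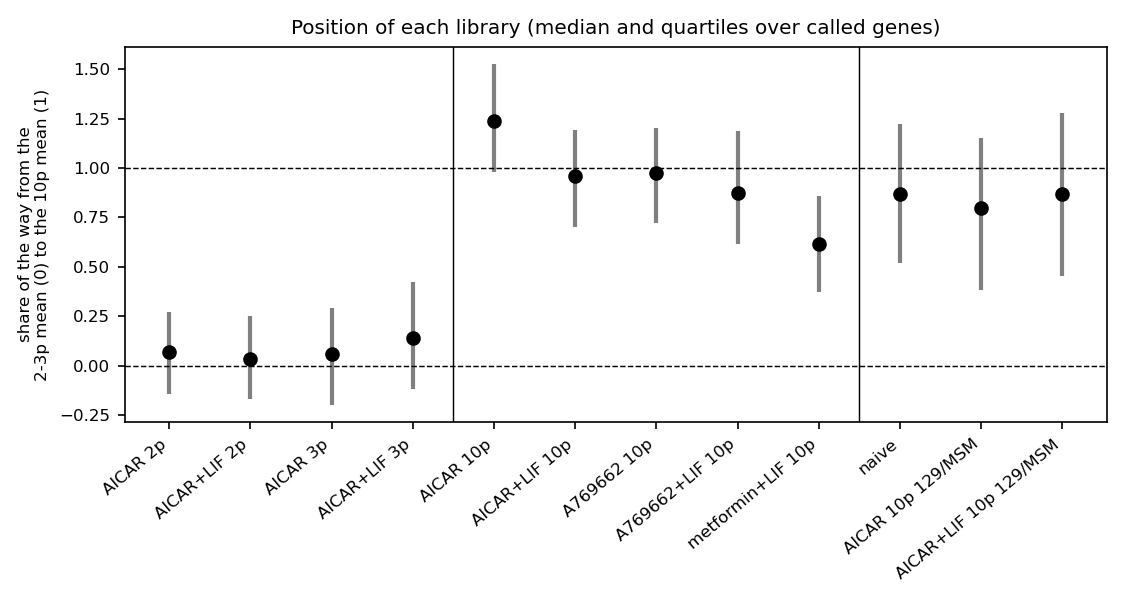
Median position of each library between the mean of the early libraries (0) and the mean of the late libraries (1), over genes called without that library for the 9 Oct4GIP libraries, with bars from the 25th to the 75th percentile over genes. The early libraries lie between 0.033 and 0.138, the late ones between 0.614 (metformin+LIF) and 1.24 (AICAR), and the naive library at 0.871.

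The naive library took no part in the test and lay at 0.871 on this axis, and the 2 libraries of 129/MSM at 10 passages at 0.799 and 0.870. Of the 3136 called genes, 75.7% had a naive level nearer to the late than to the early mean, against 63.0% of all tested genes. For the 129/MSM libraries the shares were 68.6% and 72.0% of called genes, against 59.1% and 60.5% of all tested genes. The primed Oct4GIP library also had a median above 0 (0.789), but its genes were spread from −0.288 to 1.77 between the 25th and 75th percentiles, against 0.519 to 1.22 in the naive library. The 8 Oct4GIP libraries of days 8 and 16 also had medians near or above 1 (0.900 to 1.28), again with a wide spread: the 25th percentile was −0.277 to 0.032 and the 75th 1.99 to 2.39. A median near 1 was therefore not particular to the late or the naive libraries. The primed library was nearer to the late mean for 47.6% of the genes that rose and 71.6% of those that fell, against 75.1% and 76.4% for the naive library.

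Chromosome-wide levels were examined because cultured pluripotent cells are known to gain or lose chromosomes. Over 10173 genes, the median deviation of a chromosome in a library from the 9-library mean was −0.093 to 0.085 on 17 of the 20 chromosomes. Chromosome 8 stood at 0.42 in AICAR at 3 passages and chromosome 12 at −0.31 in A769662 at 10 passages. Chromosome 15 was at −0.24, −0.25, −0.22 and 0.29 in the early libraries and at 0.17, 0.18, 0.25, 0.02 and −0.22 in the late libraries, so it varied within both stages. Against the same mean, chromosome 8 stood at 0.40 in the naive library and at −0.06 and 0.38 in the 129/MSM libraries at 10 passages. Chromosome 15 stood at −0.25 in the naive library and at −0.23 and −0.29 in those 129/MSM libraries. The part of these levels in the positions given above was not tested. The shift of chromosome 15 between the stages was 0.18 (two-sided exact permutation test, unadjusted p = 0.278) and 0.31 without AICAR+LIF at 3 passages. No chromosome passed at an adjusted p under 0.05, and 5 had an unadjusted p under 0.05 by the exact permutation test; with 126 splits of 5 against 4 libraries the smallest p is 0.00794, and 4 chromosomes would have had to reach it. All 152 called named genes kept their call when chromosome medians were removed, an alternative chosen after the data were seen.

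**Figure D5:**
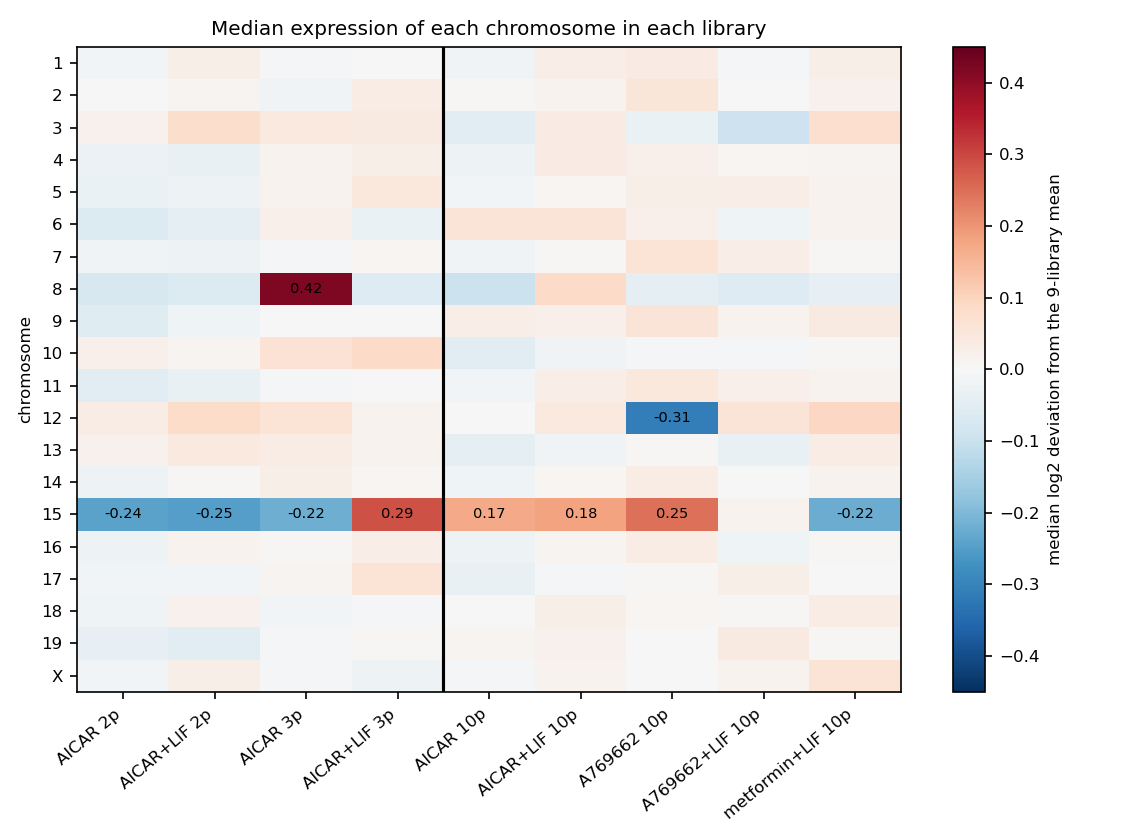
Median log2 deviation of the genes of each chromosome (rows) from the 9-library mean in each library (columns), early libraries left of the black line. Chromosome 15 is low in 3 early libraries and in metformin+LIF at 10 passages and high in AICAR+LIF at 3 passages (0.29), and chromosome 8 is high in AICAR at 3 passages (0.42).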

How the data were processed

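Bulk polyA RNA was sequenced, and the authors deposited 1 table of counts per Ensembl gene for the 22 libraries, which was used as deposited. The submitters' processing notes name bcl2fastq, Bowtie2 2.2.5, the builds GRCm38 and mm10, and limma. The study's methods describe a minimum mapping quality of 1. Whether counting used strand is not given in the sources used here, so overlapping and antisense genes may share reads. The table has 34489 genes, and 98.1% of them had a position in GENCODE M21. It holds 0 columns of no sample. The 2 other deposited kinds of table, per transcript and per detected gene, were not used.

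Gene counts of the 9 libraries were tested with edgeR 4.0.16 (R 4.3.3; filterByExpr with its defaults, TMM factors, glmQLFit and glmQLFTest, stage as the single term), with Benjamini-Hochberg adjustment over the 13280 genes that passed the filter and an adjusted p threshold of 0.05. The common biological coefficient of variation was 0.172. On simulated counts with 100 genes changed by a log2 value of 1 and 100 by 2, edgeR recovered 61 and 95 with 9 false calls. Levels are CPM of the gene total scaled by TMM factors that were computed over all 22 libraries. Folds of genes with few reads are ratios of pooled reads over TMM-scaled totals with exact 95% intervals. Chromosome medians used genes with a mean of at least 10 CPM and an exact two-sided permutation test over the libraries, checked on simulated shifts (5 of 5 recovered). Tables were handled with Python 3.11.15, pandas 2.3.3 and SciPy 1.17.1.

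The 36 gene lists and 4 marker lists, and the choice of libraries, were made with earlier results of these data known, so lists are described by counts and medians with no test. Genes were named by rule: the 10 largest changes per direction among called genes without overlap and with a mean log2 CPM of at least 3, up to 4 called members per list by adjusted p, the 2 most abundant tested members of each list, and a fixed set of pluripotency and lineage genes. Genes named outside the rule are said to be so, and some genes that the rule names are not reported here. Promoter windows and sequences came from RefSeq (GRCm38.p6). Alternatives were RLE factors, no factors, DESeq2 1.42.0, limma 3.58.1 (voom), no filter, at least 10 counts in every library, all 22 libraries, AICAR and AICAR+LIF alone, 3 passages as the early stage, 129/MSM libraries added, a LIF term, thinning to the smallest total (1689495), and each library left out. The early stage at 2 passages and removal of chromosome medians were added after the data were seen.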

Additional observations from a re-analysis of the deposited data

Results flagged for a closer look

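Within each stage, 32 single values stood apart from the rest of their group by Dixon's test at the 95% level, among 396 such tests on the named genes, of which chance alone marks about 1 in 20. AICAR at 10 passages, the shallowest library, supplied 9 of them: Trim28 at 1352 CPM, Gdf3 at 78.2, Smad5 at 60.6, Uhrf2 at 121, Epop at 204, Mcm2 at 681, H2-T23 at 6.47, Klf2 at 166 and Foxa2 at 2.94 CPM. Metformin+LIF at 10 passages supplied 5, Gja1 at 19.6 CPM, Pim1 at 100.4, Esrp1 at 2.98, Cox7c at 128 and Wipi1 at 9.83 CPM. Gja1 and Esrp1, which fell between the stages, were thus highest in the late library that lay nearest to the early stage.

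AICAR+LIF at 3 passages supplied 8, Utf1 at 256 CPM, Etv5 at 471, Fkbp6 at 33.4, Smc1b at 13.3, Ero1l at 41.1, Amt at 132, Mthfd1 at 394 and Kit at 113 CPM. Smc1b lies on chromosome 15, which was raised in that library. AICAR at 3 passages supplied 6, Cdh1 at 685 CPM, Nes at 34.1, Mcl1 at 1148, Ctnnb1 at 780, Rian at 295 and Zfp42 at 698 CPM. Cdh1 and Zfp42 lie on chromosome 8, which was raised in that library. The remaining 4 values were Dppa3 at 48.6 CPM in A769662+LIF, Fasn at 1250 in AICAR+LIF, and Slc7a1 at 242 and Fgf5 at 1.23 CPM in A769662, all at 10 passages. None of these values was removed.

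For 6 named genes both early AICAR libraries lay on one side of the late AICAR library while both early AICAR+LIF libraries lay on the other side of the late AICAR+LIF library. The log2 changes with AICAR and with AICAR+LIF were 0.049 and −0.16 for Nras, −0.23 and 0.18 for Tcf7l1, −0.092 and 0.29 for Lamc1, −0.24 and 0.23 for Kdm3a, 0.27 and −0.14 for Mcm2, and −0.11 and 0.24 for Klf4. These differences between the arms were not tested, and the late stage has 1 library in each arm.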

How the results depend on the processing

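With all 22 libraries in the fit 1880 genes were called (979 higher, 901 lower), and with 3 passages alone as the early stage 1700 (1028 higher, 672 lower), against 3136 (1732 higher, 1404 lower). Of these, 1648 and 1498 were shared with the 3136 in the same direction. With 2 passages alone, added after the data were seen, 2195 were called (1071 higher, 1124 lower). Leaving out each library in turn gave 2407 to 3322 called genes (1349 to 1749 higher, 1058 to 1573 lower). The count was 2476 without AICAR and 2407 without AICAR+LIF at 2 passages, the early libraries most alike. It was 2631 without AICAR and 2792 without AICAR+LIF at 3 passages. The other alternatives gave 2174 to 3753. No named gene reversed direction in any alternative run, and 84 of the 152 called named genes kept their call in every alternative that tested them. No chromosome passed in the test of the 9 libraries (5 at an unadjusted p under 0.05), without normalization factors or at a mean of at least 30 CPM, and with fewer libraries the smallest p the exact permutation test can give rises to between 0.0179 and 0.0667. Depth limits genes under about 1 CPM, where 3 reads stood for 0.881 to 1.78 CPM before TMM scaling. Genes changed by a log2 value of 1 were recovered in 61 of 100 simulated cases. No paired analysis was possible because the replicate numbers were given in accession order and pair no libraries. The nearest fit, AICAR and AICAR+LIF libraries alone with the arm as a term, gave 2174 called genes.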

Other observations

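The 3 metabolic lists that rose between the stages were also read in the libraries taken before expansion in 2iL, which entered no test here. Against the early mean, the ATF4 list had a median of 2.05 in primed Oct4GIP cells, −0.02 in Basal medium, 0.14 in 2iL, −0.89 in AICAR and −0.89 in AICAR+LIF at day 8, and −0.20, −0.33, −0.56 and −0.87 in the same 4 conditions at day 16. The cholesterol list was at 1.84 in primed cells, at 0.97, 0.72, 0.71 and 0.20 at day 8 and at 0.01, 0.56, 1.18 and 0.96 at day 16. The fatty acid list was at 1.35 in primed cells, at 0.50, 0.50, −0.09 and −0.19 at day 8 and at 1.37, 1.38, 0.98 and 0.70 at day 16. The median over all tested genes was −0.12 in the primed library and −0.24 to −0.36 at days 8 and 16, and each of these conditions is 1 library.

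A pair of E-box letter patterns was also counted, on both strands, in the promoter windows of 250 bases before to 50 bases after the start. The letters CACGTG were held by 12 of 29 germline genes with a window (41.4%), against 8.09% of all symbols with one and 12.2% of tested genes with one. Of the germline genes that rose 2 of 7 with a window held them, and of those tested and not called 7 of 13. The longer TCACGTGA, which contains the same letters, was held by 0 of 29 germline genes and by 6 of 29 lysosome and autophagy genes (20.7%), against 1.13% of all symbols and 2.29% of tested genes.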
